A study of Homo sapiens with 24 samples.

Results

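The genes described here are 44 coregulators of the androgen receptor, that is, proteins that help the receptor switch its target genes on (coactivators) or off (corepressors) without being its hormone-binding part. They were taken by gene symbol from a list of names. The rule that picks them uses no measured value, but the list was chosen with earlier results of these data known. Each of the 44 symbols was found once among the 60649 features of the count table, and all 44 passed the filter on low counts in both experiments (17772 genes tested in the first and 17893 in the second). Together they took 0.607% to 0.798% of the counts of a library.

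All libraries came from LNCaP, a human prostate adenocarcinoma cell line that carries an androgen receptor and depends on androgen for growth. In the first study cells carried a transfected plasmid for peptide 3 of WDR77 (P3 below) or the plasmid with no insert (EV). In the second study they received siRNA against WDR77 (siWDR77) or siRNA with no target (siCtrl). After a change to medium without androgen, cells of every arm were given 5 nM R1881, a synthetic androgen, or its ethanol vehicle for 48 h, and polyadenylated RNA was sequenced. The 8 groups were therefore P3 with R1881, P3 with vehicle, EV with R1881, EV with vehicle, siWDR77 with R1881, siWDR77 with vehicle, siCtrl with R1881 and siCtrl with vehicle, with 3 libraries each, stated to be biological triplicates. WDR77 is the partner subunit of the arginine methyltransferase PRMT5 and binds the androgen receptor, and the study's title concerns the disruption of that binding. Expression from the plasmid and the siRNAs was transient, and a bulk library averages all cells of a well, so fewer cells of a kind and less RNA per cell cannot be told apart.

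When androgen enters the cell, the receptor moves to the nucleus and binds DNA, where its bound form recruits p160 coactivators. These bring in acetyltransferases that loosen chromatin, SWI/SNF complexes that move nucleosomes, and the Mediator complex, which contacts RNA polymerase II. Histone demethylases remove repressive methyl marks at the same sites, while corepressor complexes with histone deacetylases act in the opposite sense. In prostate cancer the balance of these factors is studied as one way in which receptor signalling persists after androgen deprivation. What was measured here is the mRNA of the coregulators, not their protein or their binding to the receptor.

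Levels below are read counts scaled to library size (CPM) with TMM factors, which adjust library totals for differences in RNA composition, and the 3 values of a group are given in order of sample number. Errors given with ± beside a fold change are SE. A gene was called when edgeR's quasi-likelihood test gave a Benjamini-Hochberg adjusted p under 0.05 over all tested genes, and fold changes are log2. Library totals ran between 16665915 and 24260446 counts. WDR77 had 15.6, 13.4 and 13.8 CPM in siWDR77 cells with R1881, against 63.8, 67.3 and 66.1 CPM in siCtrl cells with R1881. It had 11.3, 14.9 and 13.3 CPM in siWDR77 cells with vehicle, against 41.7, 46.7 and 46.6 CPM in siCtrl cells with vehicle, so every siWDR77 library was below every siCtrl library. In the first study WDR77 had 89.3, 100.5 and 94.7 CPM in P3 cells with R1881, against 59.4, 58.8 and 64.01 CPM in EV cells with R1881, and 56.2, 61.6 and 52.3 CPM in P3 cells with vehicle, against 55.1, 58.8 and 63.6 CPM in EV cells with vehicle. Reads from the transfected plasmid were not separated from this count. The androgen-induced genes KLK3 and FKBP5 were above every vehicle library of their arm in all 12 libraries with R1881. The 9 luminal prostate markers summed to between 5190 and 23800 CPM in a library, while summed basal, fibroblast, endothelial, immune and neuroendocrine markers never passed 31.8 CPM. All 9 luminal markers passed 1 CPM in some library, and so did KRT14, COL1A1, COL3A1, VWF and SYP among the others. The siCtrl vehicle library with sample number 35 stood apart: 8.4% of its counts were mitochondrial, against at most 6.30% in the other libraries, and KLK3 was at 52.6 CPM, against 203 and 204 CPM in the other siCtrl vehicle libraries. With plain library totals in place of TMM, the median log2 change of all genes under R1881 shifted to -0.109 in P3, -0.21 in EV, -0.312 in siWDR77 and -0.305 in siCtrl cells, so small changes are relative to the scaling used, and members whose direction flipped are named below.

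R1881 moved most coregulator mRNAs by small amounts and a few by more. In P3 cells 13 members (29.5%) were called, 6 higher and 7 lower, where 21% of all tested genes were called, 13% higher and 7.96% lower. In EV cells 31 members (70.5%) were called, 14 higher and 17 lower, where 51.4% of all genes were called, 24.9% higher and 26.4% lower. In siWDR77 cells 30 members (68.2%) were called, 16 higher and 14 lower, where 53.2% of all genes were called, 27.7% higher and 25.5% lower. In siCtrl cells 26 members (59.1%) were called, 12 higher and 14 lower, where 51.1% of all genes were called, 25.7% higher and 25.4% lower. With library totals the splits were 3 higher and 18 lower in P3, 9 and 24 in EV, 7 and 28 in siWDR77, and 6 and 30 in siCtrl cells. The shares of all genes called were then 25.5% in P3, 56.4% in EV, 60.8% in siWDR77 and 58.6% in siCtrl cells. Without library 35 the siCtrl count was 25, with 11 higher and 14 lower, where 48% of all genes were called. Called changes of at least 2-fold were rare among the members. There were 0 in P3 cells (2.45% of all genes), 1 in EV cells, PIAS1 (14.9% of all genes), 1 in siWDR77 cells, NCOA7 (19.4% of all genes), and 2 in siCtrl cells, NCOA7 and KDM4B (17.4% of all genes). The median absolute log2 change over the 44 members was 0.117 in P3, 0.241 in EV, 0.242 in siWDR77 and 0.23 in siCtrl cells, against 0.18, 0.373, 0.416 and 0.406 over all genes. The signed median of the members was -0.051 in P3, -0.040 in EV, 0.010 in siWDR77 and -0.066 in siCtrl cells, against -0.020, -0.042, -0.016 and -0.045 over all genes.

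**Figure D1:**
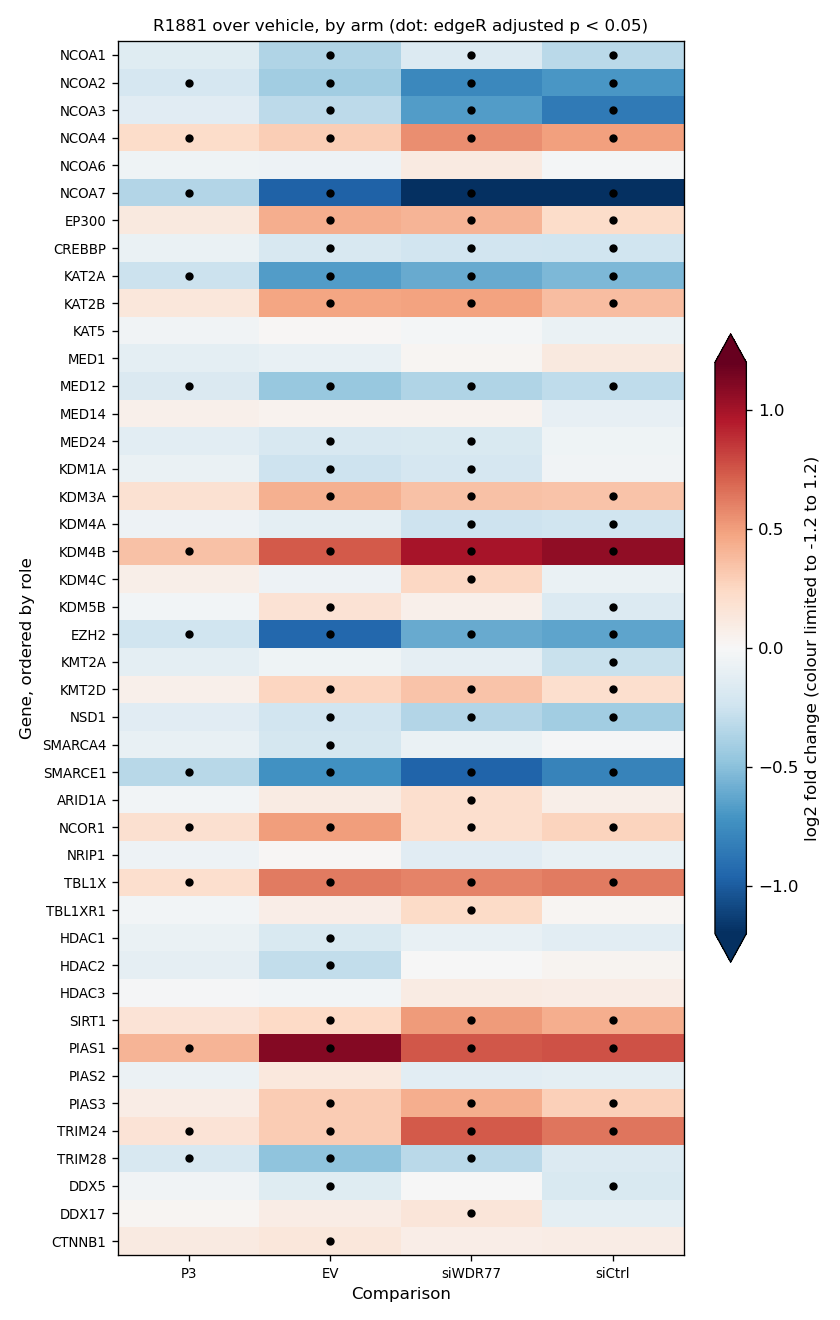
Colour map of the log2 fold change of R1881 over vehicle for each of the 44 coregulators (rows, ordered by role) in P3, EV, siWDR77 and siCtrl cells (columns, 3 libraries per group), with colours limited to -1.2 and 1.2 and a dot where edgeR's adjusted p was under 0.05. The same 6 genes carry a dot with red in all 4 columns and another 6 with blue, and the P3 column is paler than the EV column.

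A core of 12 members was called in one direction in all 4 arms. KDM4B, NCOA4, NCOR1, PIAS1, TBL1X and TRIM24 rose with R1881, with the exceptions that, with library totals, NCOR1 turned to -0.099 in siWDR77 cells and was not called in siCtrl cells (adjusted p = 0.917). EZH2, KAT2A, MED12, NCOA2, NCOA7 and SMARCE1 fell in all 4. In P3 cells only 6 of the 12 calls held under all 13 alternatives tried for that comparison. TRIM24 was still called in 5 of the 13, MED12 in 6, TBL1X in 9, EZH2 in 10, NCOR1 in 11 and SMARCE1 in 12. Both sets mix roles: the rising set holds coactivators and the corepressor subunits NCOR1 and TBL1X, and the falling set holds coactivators and the repressive methyltransferase EZH2. The 7 members HDAC3, KAT5, MED1, MED14, NCOA6, NRIP1 and PIAS2 were called in none of the 4 arms.

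The p160 coactivators NCOA1, NCOA2 and NCOA3 are the scaffold that the hormone-bound receptor contacts first. All 3 fell with R1881 in EV, siWDR77 and siCtrl cells, and in P3 cells only NCOA2 was called. The NCOA1 call in siWDR77 cells was kept in 8 of 13 alternatives. NCOA2 had 134, 144 and 136 CPM in P3 cells with R1881, against 164, 158 and 154 CPM with vehicle (log2 fold change -0.20, SE 0.057, adjusted p = 0.00702). It had 137, 128 and 118 CPM in EV cells with R1881, against 172, 178 and 158 CPM with vehicle (log2 fold change -0.41, SE 0.057, adjusted p = 6.43e-08). In both arms every R1881 library lay below every vehicle library. NCOA2 had 148, 156 and 160.5 CPM in siWDR77 cells with R1881, against 278, 258 and 260.0 CPM with vehicle (log2 fold change -0.78, SE 0.055, adjusted p = 1.01e-11). In siCtrl cells it had 145, 143 and 152 CPM with R1881, against 245, 233 and 237 CPM with vehicle (log2 fold change -0.70, SE 0.055, adjusted p = 9.11e-11), again without overlap. NCOA3, which is also known for its amplification in breast cancer, had 50.1, 51.1 and 52.9 CPM in siCtrl cells with R1881, against 95.5, 93.2 and 89.1 CPM with vehicle (log2 fold change -0.85, SE 0.067, adjusted p = 9.1e-11). Its libraries were separate there and in EV cells, where the log2 fold change was -0.31 ± 0.072 (SE, adjusted p = 0.000332). In P3 cells NCOA3 moved by -0.13 (adjusted p = 0.208).

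Among the other nuclear receptor coactivators, NCOA7 was the member that fell furthest in siWDR77 and siCtrl cells. NCOA7 is known as a coactivator of oestrogen receptor and for a protein domain shared with oxidation-resistance factors. It had 45.8, 44.3 and 39.8 CPM in P3 cells with R1881, against 56.4, 54.2 and 55.2 CPM with vehicle (log2 fold change -0.35, SE 0.072, adjusted p = 0.000205). In EV cells it had 35.4, 30.1 and 28.8 CPM with R1881, against 63.4, 61.9 and 59.3 CPM with vehicle (log2 fold change -0.97, SE 0.074, adjusted p = 1.2e-14). The R1881 libraries of both arms lay below their vehicle libraries. In siWDR77 cells NCOA7 had 26.1, 23.9 and 21.4 CPM with R1881, against 101, 96.1 and 95.3 CPM with vehicle (log2 fold change -2.03, SE 0.081, adjusted p = 1.21e-16). In siCtrl cells it had 27.2, 25.04 and 25.1 CPM with R1881, against 85.1, 81.6 and 98.9 CPM with vehicle (log2 fold change -1.78, SE 0.081, adjusted p = 1.95e-15). The highest R1881 library was far below the lowest vehicle library in both arms. NCOA4, a coactivator and the receptor for ferritin in autophagy, went the other way, with log2 fold changes of 0.22 in P3, 0.29 in EV, 0.56 in siWDR77 and 0.49 in siCtrl cells. NCOA6, a subunit of a histone methyltransferase complex, was not called, with values between -0.058 in EV cells and 0.11 in siWDR77 cells.

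The acetyltransferases split in pairs. EP300 and CREBBP are close relatives that acetylate histones and the receptor itself. EP300 rose in EV cells (log2 fold change 0.43, SE 0.052, adjusted p = 2.91e-09) and in siWDR77 cells (log2 fold change 0.41, SE 0.061, adjusted p = 2.84e-06, not called with library totals), and its rise of 0.22 ± 0.061 (SE, adjusted p = 0.00346) in siCtrl cells turned to -0.039 with library totals. CREBBP fell in the same 3 arms, with log2 fold changes of -0.20 ± 0.059 (SE, adjusted p = 0.00496) in EV, -0.23 ± 0.064 (SE, adjusted p = 0.00384) in siWDR77 and -0.24 ± 0.064 (SE, adjusted p = 0.00319) in siCtrl cells. The related pair KAT2A (GCN5) and KAT2B (PCAF), catalytic subunits of SAGA-type complexes, also moved apart. KAT2A had 89.5, 94.5 and 95.7 CPM in P3 cells with R1881, against 112, 109.6 and 112 CPM with vehicle (log2 fold change -0.25, SE 0.056, adjusted p = 0.000652). It had 65.6, 65.9 and 69.97 CPM in EV cells with R1881, against 105, 102 and 114 CPM with vehicle (log2 fold change -0.67, SE 0.058, adjusted p = 4.22e-13), and no library overlapped in either arm. KAT2A also fell in siWDR77 cells, at -0.60 ± 0.068 (SE, adjusted p = 4.41e-08), and in siCtrl cells, at -0.54 ± 0.068 (SE, adjusted p = 2.65e-07). KAT2B rose in EV (0.47 ± 0.082, adjusted p = 5.06e-06), siWDR77 (0.48 ± 0.067, adjusted p = 1.14e-06) and siCtrl cells (0.37 ± 0.068, adjusted p = 5.76e-05, not called with library totals), and in P3 cells its value was 0.14 (adjusted p = 0.262). KAT5 (TIP60) was not called in any comparison, and 38.6% of its exon bases lie in exons of other genes, so its counts are uncertain.

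Of the 4 Mediator subunits, MED12, part of the detachable kinase module, fell in all 4 arms, with log2 fold changes of -0.17 in P3, -0.45 in EV, -0.36 in siWDR77 and -0.30 in siCtrl cells. MED24, a tail subunit, fell in EV (-0.19 ± 0.061, adjusted p = 0.0083) and siWDR77 cells (-0.18 ± 0.059, adjusted p = 0.0118). These calls were kept in 9 and 12 of 13 alternatives. MED24 was not called in P3 (-0.12) or siCtrl cells (-0.054). MED1, the subunit that nuclear receptors bind directly, and MED14, the scaffold of the complex, were called in none of the 10 comparisons, with R1881 responses between -0.12 and 0.12. Among 29 other Mediator genes, 5 were called in P3 (4 higher, 1 lower), 10 in EV (8 higher, 2 lower), 17 in siWDR77 (14 higher, 3 lower) and 11 in siCtrl cells (8 higher, 3 lower). Their median log2 change was 0.071 in P3, 0.12 in EV, 0.18 in siWDR77 and 0.10 in siCtrl cells. CDK8, the kinase of the module that holds MED12, fell, with log2 fold changes of -1.62 ± 0.065 (SE, adjusted p = 5.9e-24) in EV and -1.89 ± 0.064 (SE, adjusted p = 5.32e-18) in siCtrl cells. MED12L, a relative of MED12, rose in EV cells by 1.94 ± 0.18 (SE, adjusted p = 2.34e-12), and the head subunit MED8 rose in siCtrl cells by 0.99 ± 0.08 (SE, adjusted p = 1.48e-10).

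The demethylase that moved most was KDM4B, which removes methyl groups from lysine 9 of histone H3 and is known to act with the androgen receptor. KDM4B had 228, 210.4 and 222 CPM in P3 cells with R1881, against 176, 167 and 176 CPM with vehicle (log2 fold change 0.35, SE 0.055, adjusted p = 3.65e-06). In EV cells it had 243, 236 and 276 CPM with R1881, against 146, 152 and 156 CPM with vehicle (log2 fold change 0.73, SE 0.056, adjusted p = 7.5e-15). Every R1881 library was above every vehicle library of its arm. In siWDR77 cells KDM4B had 319.9, 284 and 287 CPM with R1881, against 157, 153 and 138 CPM with vehicle (log2 fold change 0.99, SE 0.064, adjusted p = 1.34e-12). In siCtrl cells it had 326, 313 and 304 CPM with R1881, against 154, 156 and 141 CPM with vehicle (log2 fold change 1.06, SE 0.064, adjusted p = 4.08e-13). No group overlapped here either. KDM3A, another H3 lysine 9 demethylase, rose in EV (0.42 ± 0.073, adjusted p = 5.03e-06), siWDR77 (0.35 ± 0.073, adjusted p = 0.000273) and siCtrl cells (0.34 ± 0.074, adjusted p = 0.000429). With library totals the KDM3A calls in siWDR77 and siCtrl cells were lost. The close KDM4B relatives did not share its rise: KDM4A fell in siWDR77 (-0.25) and siCtrl cells (-0.24), with 48.5% of its exon bases in exons of other genes, and KDM4C was called in siWDR77 cells alone (0.25, which turned to -0.043 with library totals). KDM1A (LSD1) fell in EV (-0.24) and siWDR77 cells (-0.20), where the siWDR77 call was kept in 7 of 13 alternatives.

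KDM5B, a demethylase of H3 lysine 4, was the single member called in opposite directions in the control arms, and it was singled out after its values were seen. It had 126, 113 and 122 CPM in EV cells with R1881, against 105, 108 and 108 CPM with vehicle (log2 fold change 0.17, SE 0.056, adjusted p = 0.0103). In siCtrl cells it had 108, 114 and 113 CPM with R1881, against 122, 121 and 132 CPM with vehicle (log2 fold change -0.17, SE 0.062, adjusted p = 0.0262). Without library 35 the siCtrl change was -0.13 with an adjusted p of 0.09, within a range of 2.29e-06 to 0.111 over the alternatives for this gene. That siCtrl call was kept in 8 of 13 alternatives. With library totals the EV change was 0.000805 (adjusted p = 0.992), so the rise in EV cells depends on the scaling. In an edgeR fit of all 24 libraries, chosen after the data were seen, the EV response minus the siCtrl response was 0.319 (adjusted p = 0.00545), against 0.329 without library 35 and 0.429 with library totals. The transfected material and the study differ between these arms together and cannot be told apart.

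EZH2, the catalytic subunit of the Polycomb complex that methylates H3 lysine 27, had 41.9, 41.3 and 39.6 CPM in P3 cells with R1881, against 50.3, 48.8 and 45.5 CPM with vehicle (log2 fold change -0.24, SE 0.072, adjusted p = 0.015). In EV cells it had 25.7, 21.8 and 23.6 CPM with R1881, against 48.1, 45.4 and 43.4 CPM with vehicle (log2 fold change -0.95, SE 0.077, adjusted p = 7.79e-14). The R1881 libraries were below the vehicle libraries in both arms. In siWDR77 cells EZH2 had 18.3, 22.1 and 17.9 CPM with R1881, against 25.6, 29.6 and 33.3 CPM with vehicle (log2 fold change -0.61, SE 0.16, adjusted p = 0.00703). In siCtrl cells it had 23.6, 21.3 and 21.4 CPM with R1881, against 37.6, 40.4 and 24.8 CPM with vehicle (log2 fold change -0.63, SE 0.16, adjusted p = 0.00547), where the lowest vehicle value belongs to library 35 and the change without it was -0.83. EZH2 is known to be expressed in dividing cells. The summed level of 22 cell-cycle genes moved with it: it was 1904, 2097 and 2079 CPM in P3 cells with R1881, against 2579.6, 2799.7 and 2769 CPM with vehicle, and 1106, 1029.6 and 1032 CPM in EV cells with R1881, against 2877, 2912 and 2949 CPM with vehicle. In the second study the sum was 456, 505 and 412 CPM in siWDR77 cells with R1881, against 1118, 1339 and 1378 CPM with vehicle, and 717, 780.5 and 761 CPM in siCtrl cells with R1881, against 1550.2, 1640.1 and 758 CPM with vehicle. All 22 of these genes were called lower in P3, EV and siWDR77 cells and 14 of 22 in siCtrl cells, with median log2 changes of -0.44 in P3, -1.50 in EV, -1.63 in siWDR77 and -0.90 in siCtrl cells, and their part in the EZH2 result was not tested.

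Among the other methyltransferases, NSD1, which methylates H3 lysine 36, fell in EV (-0.23), siWDR77 (-0.35) and siCtrl cells (-0.42). KMT2D, an H3 lysine 4 methyltransferase that acts at enhancers, rose in EV (0.25), siWDR77 (0.34) and siCtrl cells (0.20), the siCtrl value turning to -0.063 with library totals, where the EV and siWDR77 calls were lost. Its relative KMT2A fell in siCtrl cells (-0.27 ± 0.074, adjusted p = 0.00398) and was not called in P3, EV or siWDR77 cells. Over 32 other histone methylation genes, the R1881 call count was 7 in P3 (3 higher, 4 lower), 20 in EV (6 higher, 14 lower), 15 in siWDR77 (6 higher, 9 lower) and 15 in siCtrl cells (5 higher, 10 lower). Their median log2 change was -0.086 in P3, -0.088 in EV, -0.072 in siWDR77 and -0.079 in siCtrl cells. The named examples are NSD2, a relative of NSD1, at -0.80 ± 0.052 (SE, adjusted p = 4.82e-17) and the demethylase KDM7A at 1.07 ± 0.079 (SE, adjusted p = 3.08e-15) in EV cells, and the demethylases PHF8 at 1.09 ± 0.075 (SE, adjusted p = 9.12e-12) and KDM5C at 0.58 ± 0.057 (SE, adjusted p = 3.8e-09) in siCtrl cells.

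SMARCE1, a DNA-bending subunit of SWI/SNF known to bind nuclear receptors, had 18.6, 16.7 and 20.3 CPM in P3 cells with R1881, against 23.6, 23.1 and 23.2 CPM with vehicle (log2 fold change -0.34, SE 0.093, adjusted p = 0.00663). In EV cells it had 14.3, 13.2 and 14.7 CPM with R1881, against 22.7, 23.5 and 23.2 CPM with vehicle (log2 fold change -0.72, SE 0.097, adjusted p = 3.32e-08). In siWDR77 cells it had 13.5, 13.2 and 14.7 CPM with R1881, against 26.8, 26.02 and 27.9 CPM with vehicle (log2 fold change -0.96, SE 0.093, adjusted p = 3.34e-09). All R1881 libraries were below all vehicle libraries of the same arm, also in siCtrl cells, with 15.8, 13.9 and 15.3 CPM with R1881, against 27.3, 26.1 and 25.2 CPM with vehicle (log2 fold change -0.80, SE 0.094, adjusted p = 8.61e-08). In the annotation 19.8% of the exon bases of SMARCE1 lie in exons of other genes, so its counts are uncertain. SMARCA4 (BRG1), the ATPase of the complex, was called in EV cells alone (-0.21 ± 0.051, adjusted p = 0.00053), and ARID1A, a targeting subunit, in siWDR77 cells alone (0.21 ± 0.063, adjusted p = 0.00729), where library totals turned it to -0.090. Of 22 other SWI/SNF genes, 2 were lower and none higher in P3, 13 lower and 1 higher in EV, 10 lower and 3 higher in siWDR77, and 12 lower and 3 higher in siCtrl cells. Their median log2 change was -0.099 in P3, -0.20 in EV, -0.14 in siWDR77 and -0.22 in siCtrl cells. SMARCD3, an accessory subunit known to link SWI/SNF to nuclear receptors, was lower at -1.39 ± 0.13 (SE, adjusted p = 1.47e-12) in EV and -1.76 ± 0.13 (SE, adjusted p = 2.19e-11) in siCtrl cells. DPF1, a subunit of the neuronal form of the complex, was lower in EV cells at -1.35 ± 0.19 (SE, adjusted p = 8.48e-08), and PHF10, a subunit of the PBAF form, in siCtrl cells at -0.48 ± 0.064 (SE, adjusted p = 7.9e-07).

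**Figure D2:**
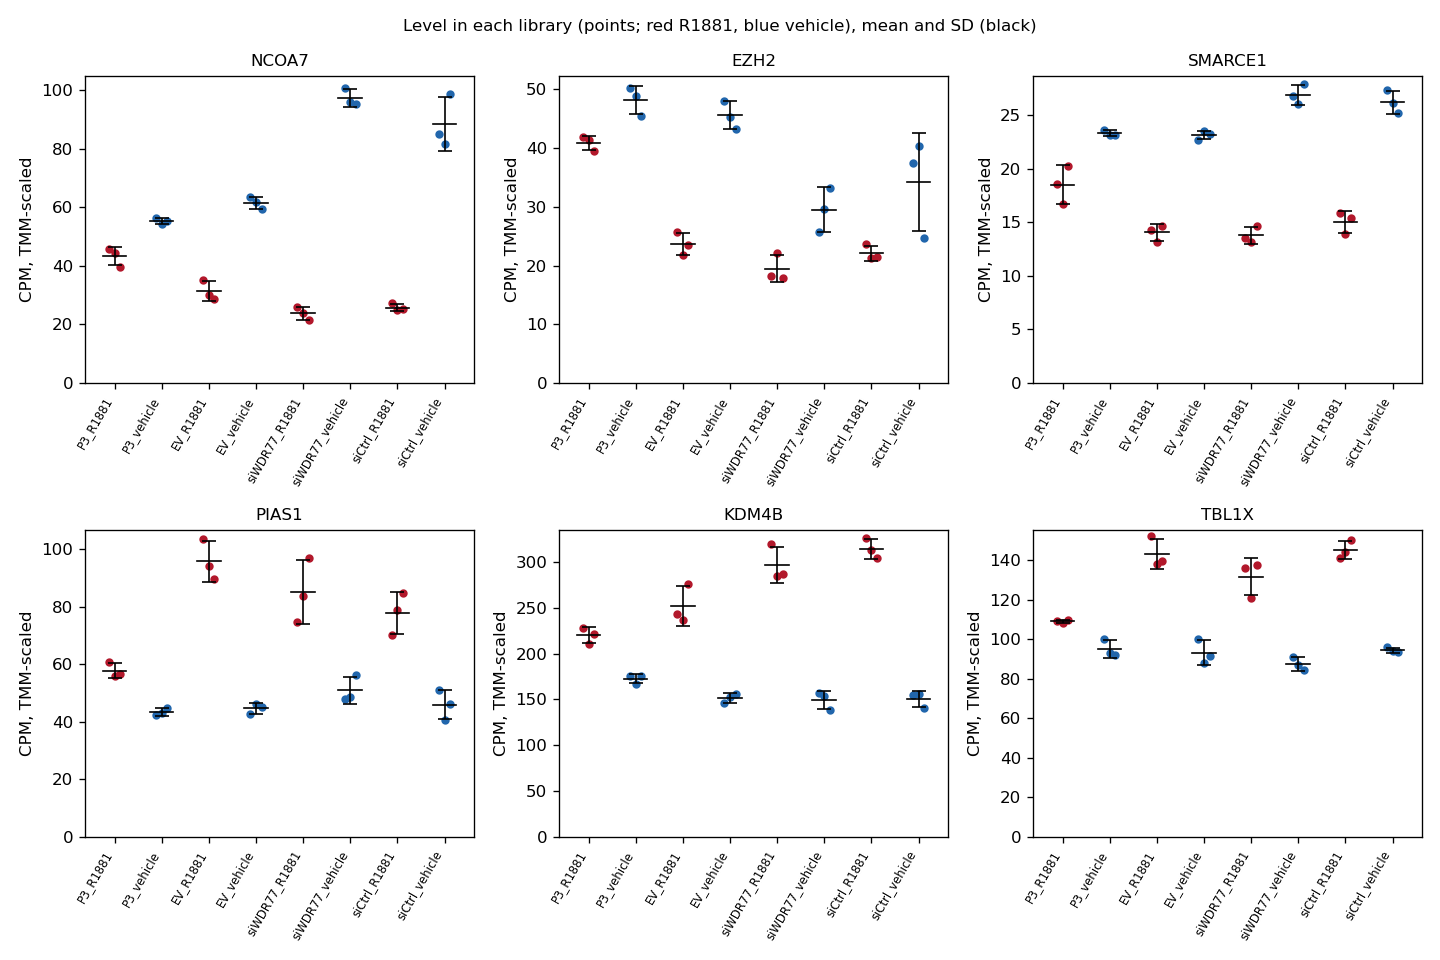
Level in each library (points, red for R1881 and blue for vehicle) in TMM-scaled CPM for 6 members in the 8 groups, with the mean and SD of 3 libraries in black. NCOA7, EZH2 and SMARCE1 are lower with R1881 in each arm and PIAS1, KDM4B and TBL1X higher, and in the P3 arm the R1881 and vehicle groups lie closer together than in the EV arm.

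On the corepressor side, TBL1X, a subunit of NCOR complexes, had the largest rise of the 8 members in EV and siCtrl cells. It had 109.5, 108 and 109.8 CPM in P3 cells with R1881, against 100.2, 92.95 and 92.1 CPM with vehicle (log2 fold change 0.20, SE 0.058, adjusted p = 0.01). In EV cells it had 152, 138 and 139.9 CPM with R1881, against 100.2, 87.9 and 91.5 CPM with vehicle (log2 fold change 0.62, SE 0.058, adjusted p = 3.16e-12). Both arms showed no overlap, and TBL1X rose by 0.59 ± 0.06 (SE, adjusted p = 8.08e-09) in siWDR77 and 0.62 ± 0.06 (SE, adjusted p = 3.4e-09) in siCtrl cells. NCOR1, the large scaffold that binds nuclear receptors and deacetylases, rose by 0.20 ± 0.048 (SE, adjusted p = 0.00223) in P3, 0.50 ± 0.049 (SE, adjusted p = 8.69e-12) in EV, 0.20 ± 0.056 (SE, adjusted p = 0.00486) in siWDR77 and 0.27 ± 0.057 (SE, adjusted p = 0.000306) in siCtrl cells. Among the deacetylases, HDAC1 (-0.19) and HDAC2 (-0.29) fell in EV cells and were called in no other arm, and HDAC3, the enzyme partner of NCOR1, was not called, with values between -0.030 in EV and 0.10 in siWDR77 cells. SIRT1, a deacetylase that uses NAD, rose in EV (0.24, not called with library totals), siWDR77 (0.51) and siCtrl cells (0.43). TBL1XR1, the sister of TBL1X, was called in siWDR77 cells alone (0.23, turning to -0.061 with library totals), and NRIP1 (RIP140), a corepressor induced by nuclear receptors in other settings, was not called in any hormone comparison. Of 24 other genes of corepressor complexes, 4 were higher and none lower in P3, 7 higher and 9 lower in EV, 9 higher and 3 lower in siWDR77, and 7 higher and 8 lower in siCtrl cells, with medians of -0.024 in P3, -0.11 in EV, -0.065 in siWDR77 and 0.0027 in siCtrl cells. CORO2A, a reported component of the NCOR complex, rose by 1.76 ± 0.07 (SE, adjusted p = 4.71e-24) in EV and 1.85 ± 0.1 (SE, adjusted p = 1.42e-10) in siCtrl cells, and MBD2, a reader of methylated DNA, by 0.73 ± 0.068 (SE, adjusted p = 3.65e-12) in EV and 0.76 ± 0.063 (SE, adjusted p = 2.53e-10) in siCtrl cells.

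PIAS1 was the member that rose most in EV cells and is a SUMO ligase known to bind the androgen receptor. It had 60.7, 55.7 and 56.6 CPM in P3 cells with R1881, against 42.3, 43.1 and 44.8 CPM with vehicle (log2 fold change 0.41, SE 0.067, adjusted p = 5.57e-06). In EV cells it had 104, 94.05 and 89.6 CPM with R1881, against 42.5, 46.2 and 45.2 CPM with vehicle (log2 fold change 1.10, SE 0.066, adjusted p = 4.24e-18), more than 2-fold. In siWDR77 cells PIAS1 had 74.7, 83.6 and 96.8 CPM with R1881, against 47.9, 48.4 and 56.2 CPM with vehicle (log2 fold change 0.74, SE 0.1, adjusted p = 1.7e-05). The groups were apart in every arm, including siCtrl cells with 69.98, 78.8 and 84.7 CPM with R1881, against 50.97, 40.6 and 46.2 CPM with vehicle (log2 fold change 0.76, SE 0.11, adjusted p = 1.58e-05). In the annotation 32.3% of the exon bases of PIAS1 lie in exons of other genes, CALML4 on the opposite strand among them, so its counts are uncertain. PIAS3 rose in EV (0.31), siWDR77 (0.44) and siCtrl cells (0.29), but with library totals none of these calls held (0.139, 0.142 and 0.0254). PIAS2 was not called in any hormone comparison. TRIM24, a bromodomain protein that binds the androgen receptor, had 123, 127 and 131 CPM in siWDR77 cells with R1881, against 74.99, 73.4 and 79.3 CPM with vehicle (log2 fold change 0.74, SE 0.058, adjusted p = 6.48e-11), with no overlap. It rose by 0.17 ± 0.062 (SE, adjusted p = 0.0475) in P3, 0.30 ± 0.061 (SE, adjusted p = 5.2e-05) in EV and 0.64 ± 0.058 (SE, adjusted p = 1.16e-09) in siCtrl cells. TRIM28 (KAP1), a corepressor of zinc finger proteins, fell in P3 (-0.19), EV (-0.48) and siWDR77 cells (-0.33). The RNA helicase DDX5 fell in EV (-0.15) and siCtrl cells (-0.19), its relative DDX17 was called higher in siWDR77 cells alone (0.15, turning to -0.15 with library totals), and CTNNB1 (beta-catenin) was called higher in EV cells alone (0.14, turning to -0.030 with library totals).

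The promoters of the 2 members that rose by over 2-fold in a control arm (PIAS1 and KDM4B) and of EZH2, which fell, are shown because they carry opposite responses. They are the 250 bases before a RefSeq start on GRCh38.p14, 5' to 3' on the strand of the gene, with CCAAT boxes of either strand (CCAAT or ATTGG) in capitals. The EZH2 stretch lies at chr7:148884292-148884541, minus strand, that of KDM4B at chr19:4968863-4969112, plus strand and that of PIAS1 at chr15:68054065-68054314, plus strand.
EZH2: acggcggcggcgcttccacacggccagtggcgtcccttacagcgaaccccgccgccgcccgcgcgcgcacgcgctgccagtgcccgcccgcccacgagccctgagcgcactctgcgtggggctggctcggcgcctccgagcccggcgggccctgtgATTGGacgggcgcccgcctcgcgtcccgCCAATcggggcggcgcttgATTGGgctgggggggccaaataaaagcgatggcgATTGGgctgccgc
KDM4B: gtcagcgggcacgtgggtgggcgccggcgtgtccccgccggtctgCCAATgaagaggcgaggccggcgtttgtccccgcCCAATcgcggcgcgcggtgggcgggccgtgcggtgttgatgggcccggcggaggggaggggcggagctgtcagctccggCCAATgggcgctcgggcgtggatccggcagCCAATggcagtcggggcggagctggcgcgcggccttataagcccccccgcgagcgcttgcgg
PIAS1: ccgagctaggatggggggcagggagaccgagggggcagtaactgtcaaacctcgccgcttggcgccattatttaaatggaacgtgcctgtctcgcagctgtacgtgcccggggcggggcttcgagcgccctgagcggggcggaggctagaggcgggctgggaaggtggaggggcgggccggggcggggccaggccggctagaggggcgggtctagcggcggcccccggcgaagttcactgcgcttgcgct
EZH2 and KDM4B each held 4 CCAAT boxes in these letters and changed in opposite directions, and PIAS1 held none. A second EZH2 start in the same table held no CCAAT box. Of the 44 members, 39 had a promoter in the RefSeq table, with 61 starts in all. CCAAT on either strand was found in 14 of the 61 (23%), against 32.0% of 35116 promoters. The hexamer that one androgen receptor molecule contacts (AGAACA or TGTTCT) was found in 2 of the 61, those of CREBBP and MED24, against 12.4% of all promoters. The full androgen response element, AGAACA followed by any 3 bases and TGTTCT, was in none of the 61 and in 1 of all promoters, and the E2F letters TTTCCCGC, TTTCGCGC, TTTGCCGC and TTTGGCGC, on either strand, were in none of the 61 and in 2.79% of all. The member promoters had a median G and C content of 68.4%, against 58.0% over all promoters, and the motif shares were not adjusted for it. A match is a description of the letters in this window.

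P3 cells and EV cells also differed after 48 h of vehicle, without hormone. With vehicle, 9 members were called between P3 and EV cells, 6 higher and 3 lower in P3 cells, where 15.8% of all genes were called, 7.93% higher and 7.88% lower. KMT2A, an H3 lysine 4 methyltransferase, had 126, 99.05 and 105 CPM in P3 cells with vehicle, against 81.5, 79.4 and 76.3 CPM in EV cells with vehicle (log2 fold change 0.48, SE 0.07, adjusted p = 1.36e-05). PIAS2, a SUMO ligase, had 96.4, 73.4 and 77.6 CPM in P3 cells, against 59.8, 62.7 and 63.1 CPM in EV cells (log2 fold change 0.42, SE 0.088, adjusted p = 0.00256). The 3 P3 libraries were above the 3 EV libraries for both genes. KDM3A had 75.6, 63.8 and 64.6 CPM in P3 cells with vehicle, against 52.6, 55.8 and 47.9 CPM in EV cells (log2 fold change 0.38, SE 0.072, adjusted p = 0.000286). KMT2D had 269, 227 and 229.8 CPM in P3 cells, against 198, 186 and 194 CPM in EV cells (log2 fold change 0.33, SE 0.059, adjusted p = 0.00016). These groups did not overlap either, and KDM4B was higher by less, with 176, 167 and 176 CPM in P3 cells, against 146, 152 and 156 CPM in EV cells (log2 fold change 0.19, SE 0.055, adjusted p = 0.0149). CTNNB1 was lower, with 352, 368 and 365 CPM in P3 cells, against 418, 420.1 and 409 CPM in EV cells (log2 fold change -0.20, SE 0.046, adjusted p = 0.0023). The remaining called members were EP300 (0.17), NCOA4 (-0.18) and HDAC3 (-0.19). Of the 9 calls, 5 held under all 13 alternatives tried. HDAC3 was still called in 6 of them, EP300 and NCOA4 in 9 each and KDM4B in 10. With library totals 11 members were called, 10 higher and 1 lower. In that fit 14% of all genes were called, and the median log2 change of all genes was 0.0617. The share of all genes called rested on single libraries: it was 7.44% without P3 vehicle library 5, 9.25% without EV vehicle library 1 and 9.96% without EV vehicle library 15, where 7, 6 and 6 members were called.

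With R1881, 20 members were called between P3 and EV cells, 9 higher and 11 lower in P3 cells. Of all genes 37% were called (18.1% higher and 18.9% lower). With library totals 30 members were called, 26 higher and 4 lower. In that fit 41.3% of all genes were called, and the median log2 change of all genes was 0.184. EZH2 was higher in P3 cells by 0.79 ± 0.078 (SE, adjusted p = 5.4e-11), with the per-library levels given above. KAT2A was higher by 0.47 ± 0.059 (SE, adjusted p = 1.26e-08), NCOA7 by 0.46 ± 0.076 (SE, adjusted p = 4.34e-06) and SMARCE1 by 0.40 ± 0.1 (SE, adjusted p = 0.00142). PIAS1 was lower in P3 cells, at -0.73 ± 0.065 (SE, adjusted p = 2.6e-12). None of these libraries overlapped between P3 and EV cells. KMT2A was higher in P3 cells with R1881 as well as with vehicle, with 107, 94.1 and 104 CPM in P3 cells with R1881, against 81.4, 73.8 and 74.03 CPM in EV cells with R1881 (log2 fold change 0.41, SE 0.072, adjusted p = 1.98e-05). The call for EP300 (-0.14) turned to 0.022 with library totals. Of the 20 calls, 12 held under every alternative tried. The 22 cell-cycle genes were all called higher in P3 cells with R1881 than in EV cells with R1881, with a median log2 change of 0.93, and their part in the member results was not tested.

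The size of the R1881 response differed between P3 and EV cells for 12 members, 6 with a more positive and 6 with a more negative response in P3 cells, where 22.6% of all genes differed, 11.5% and 11.1% in these directions. EZH2 (0.71 ± 0.11, adjusted p = 1.31e-06), NCOA7 (0.62 ± 0.1, adjusted p = 1.09e-05), KAT2A (0.42 ± 0.081, adjusted p = 0.000107), SMARCE1 (0.39 ± 0.13, adjusted p = 0.0324), TRIM28 (0.28 ± 0.087, adjusted p = 0.016) and MED12 (0.28 ± 0.089, adjusted p = 0.0188) fell in EV cells and fell by less in P3 cells. PIAS1 (-0.69 ± 0.093, adjusted p = 1.9e-07), TBL1X (-0.42 ± 0.082, adjusted p = 9.98e-05), KDM4B (-0.39 ± 0.078, adjusted p = 0.000189), KAT2B (-0.33 ± 0.12, adjusted p = 0.0336), EP300 (-0.31 ± 0.074, adjusted p = 0.00131) and NCOR1 (-0.31 ± 0.068, adjusted p = 0.000653) rose in EV cells and had smaller positive values in P3 cells. Each of these 12 thus had a value closer to 0 in P3 cells, as the scatter of P3 against EV responses shows. The same held when members were picked without either arm: of the 26 members called in siCtrl cells, 25 had a smaller absolute log2 change in P3 cells (median 0.168) than in EV cells (median 0.386). Over all 8918 genes called in siCtrl cells the share was 87.6%, with medians of 0.222 in P3 and 0.486 in EV cells. Of the 12 calls, 8 held under all 18 alternatives tried, while SMARCE1 was still called in 6 of them, KAT2B and TRIM28 in 10 each and MED12 in 12. With library totals 18 members were called, 13 with a more positive and 5 with a more negative response in P3 cells. In that fit 24.7% of all genes were called, and the median difference of all genes was 0.096.

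**Figure D3:**
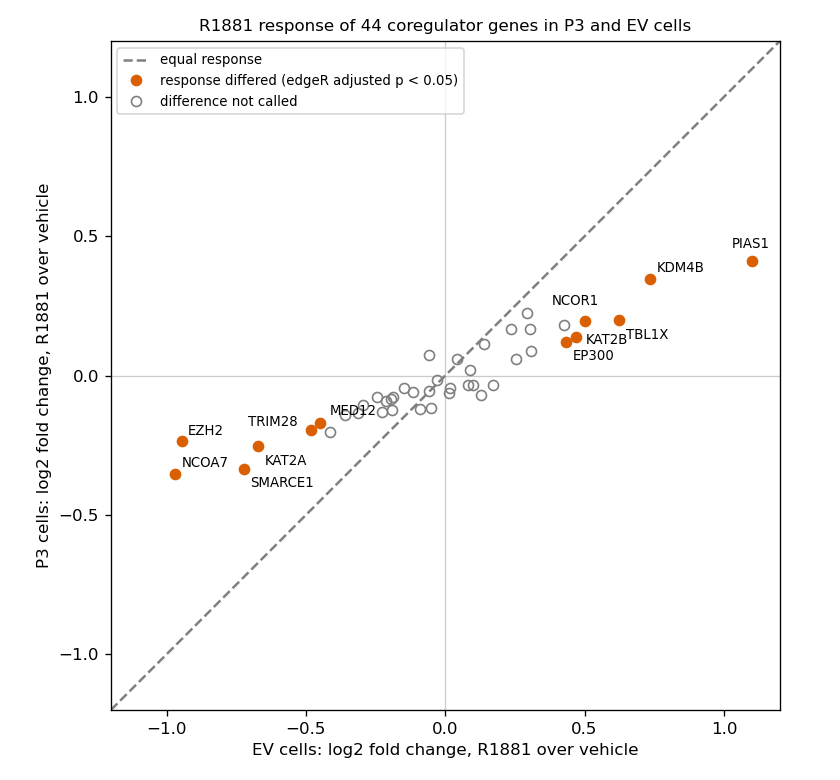
Log2 fold change of R1881 over vehicle in P3 cells (vertical axis) against that in EV cells (horizontal axis) for 44 coregulators, 3 libraries per group, with a dashed line of equal response. Filled points are the 12 members whose response differed with an edgeR adjusted p under 0.05, and all 12 lie between the dashed line and the horizontal zero line.

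After the knockdown of WDR77, 2 of the 44 coregulators were called with vehicle and 9 with R1881, against 1.53% and 7.22% of all genes. With vehicle, 2 members were called between siWDR77 and siCtrl cells, 1 higher and 1 lower, where 1.53% of all genes were called (0.682% higher and 0.844% lower), and leaving out library 35 gave 3, with EZH2 as the added one. The share of all genes was 2.59% without library 35, 0.775% without siCtrl vehicle library 21, 0.494% without siWDR77 vehicle library 9 and 0.57% without siWDR77 vehicle library 37. KAT2B had 44.7, 44.4 and 43.5 CPM in siWDR77 cells with vehicle, against 33.2, 33.3 and 36.97 CPM in siCtrl cells with vehicle (log2 fold change 0.36, SE 0.068, adjusted p = 0.00514). MED24 had 68.5, 72.8 and 72.4 CPM in siWDR77 cells, against 90.8, 97.9 and 96.6 CPM in siCtrl cells (log2 fold change -0.42, SE 0.059, adjusted p = 0.000145). Neither gene's groups overlapped, and both calls held under every alternative tried. With R1881 the same 2 genes led: KAT2B had 61.4, 60.4 and 63.3 CPM in siWDR77 cells, against 43.4, 45.2 and 45.6 CPM in siCtrl cells (log2 fold change 0.46, SE 0.067, adjusted p = 0.000118). MED24 had 63.3, 61.8 and 63.3 CPM in siWDR77 cells with R1881, against 88.7, 92.7 and 93.3 CPM in siCtrl cells with R1881 (log2 fold change -0.55, SE 0.059, adjusted p = 3.21e-06). MED24 in the first study was not called between P3 and EV cells with vehicle (-0.039) or with R1881 (0.030), while KAT2B was lower in P3 cells with R1881 (-0.36).

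**Figure D4:**
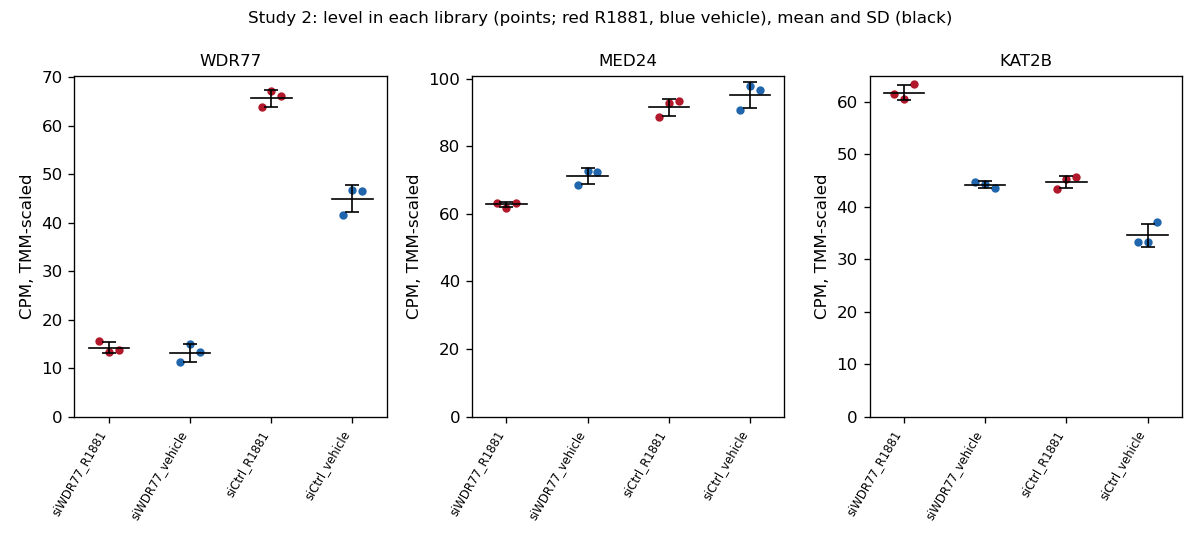
Level in each library of the second study (points, red for R1881 and blue for vehicle) in TMM-scaled CPM for WDR77, MED24 and KAT2B, with the mean and SD of 3 libraries in black. WDR77 and MED24 are lower, and KAT2B higher, in siWDR77 than in siCtrl cells of the same treatment, with no overlap.

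In all, 9 of the 44 members were called between siWDR77 and siCtrl cells with R1881, 5 higher and 4 lower in siWDR77 cells, where 7.22% of all genes were called, 3.9% higher and 3.31% lower. The count rested on single libraries: it was 2 without siCtrl R1881 library 22, 3 without siCtrl R1881 library 8, 5 without siCtrl R1881 library 36, 4 without siWDR77 R1881 library 24 and 3 without siWDR77 R1881 library 38, with 3.17% to 4.06% of all genes called in these 5 fits. Only the KAT2B and MED24 calls held under every alternative tried. KDM1A had 63.6, 65.6 and 62.3 CPM in siWDR77 cells with R1881, against 74.4, 80.5 and 76.8 CPM in siCtrl cells (log2 fold change -0.28, SE 0.079, adjusted p = 0.0346). KAT2A had 50.5, 47.6 and 47.6 CPM in siWDR77 cells with R1881, against 59.99, 56.9 and 56.8 CPM in siCtrl cells (log2 fold change -0.25, SE 0.069, adjusted p = 0.0254). Both genes had all siWDR77 libraries below all siCtrl libraries. NCOA3 had 61.8, 55.98 and 67.5 CPM in siWDR77 cells with R1881, against 50.1, 51.1 and 52.9 CPM in siCtrl cells (log2 fold change 0.27, SE 0.068, adjusted p = 0.0175). NCOA1 had 146, 136 and 131 CPM in siWDR77 cells, against 118, 111 and 116 CPM in siCtrl cells (log2 fold change 0.26, SE 0.062, adjusted p = 0.0116), both without overlap. The other called members were TRIM28 (-0.23), TRIM24 (0.22) and DDX5 (0.19).

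No member's R1881 response was called different between siWDR77 and siCtrl cells with edgeR, where 0% of all genes were called. At an unadjusted p under 0.05 there were 7 members, and DESeq2 called 0 members and 56 genes. The other edgeR fits also called 0 members. Of all genes they called 112 with no filter, 43 without siCtrl vehicle library 35 and 40 with all 24 libraries. A block by run of the sample numbers gave 16. The fitted differences of the members ran between -0.25 for NCOA7 and 0.33 for KDM4C. Of the 31 members called in EV cells, 14 had a smaller absolute R1881 response in siWDR77 cells (median 0.364) than in siCtrl cells (median 0.324), and over all 9017 genes called in EV cells the share was 41.2%.

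The remaining gene lists that stand around the members moved as follows under R1881. Of 21 other acetyltransferase-complex genes, 2 were called in P3 (both higher), 11 in EV (3 higher, 8 lower), 11 in siWDR77 (6 higher, 5 lower) and 5 in siCtrl cells (3 higher, 2 lower), with median log2 changes of -0.027 in P3, -0.16 in EV, 0.048 in siWDR77 and 0.029 in siCtrl cells. TADA3, an adaptor subunit of SAGA, rose by 0.51 ± 0.06 (SE, adjusted p = 1.28e-09) in EV and 0.62 ± 0.058 (SE, adjusted p = 1.69e-09) in siCtrl cells, and TAF5L, another SAGA subunit, by 0.58 ± 0.075 (SE, adjusted p = 1.45e-08) in EV and 0.72 ± 0.074 (SE, adjusted p = 7.96e-09) in siCtrl cells. Of the other nuclear receptor coregulators, 6 of 30 were called in P3 (2 higher, 4 lower), 24 of 30 in EV (10 higher, 14 lower), 20 of 29 in siWDR77 (12 higher, 8 lower) and 18 of 29 in siCtrl cells (11 higher, 7 lower), with medians of -0.027 in P3, -0.089 in EV, 0.060 in siWDR77 and 0.058 in siCtrl cells. RNF14 (ARA54), a ubiquitin ligase that coactivates the androgen receptor, rose by 0.67 ± 0.059 (SE, adjusted p = 5.22e-13) in EV and 0.84 ± 0.067 (SE, adjusted p = 1.05e-10) in siCtrl cells, and RNF4, a ubiquitin ligase for SUMO-bearing proteins, by 0.59 ± 0.052 (SE, adjusted p = 8.84e-13) in EV and 0.80 ± 0.064 (SE, adjusted p = 1.26e-10) in siCtrl cells.

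Per kilobase of annotated exon, the members spanned 2 orders of magnitude in level. In EV cells with vehicle TRIM28 was highest at 147 CPM per kb, followed by DDX5 at 86.7 CPM per kb, and SMARCE1 was lowest at 1.24 CPM per kb, with a median of 10.3. By the length of the longest transcript TRIM28 was again highest there, at 200 CPM per kb, and SMARCE1 lowest, at 2.73 CPM per kb, a narrower span. Ranks between these ends depended on the length used, and KDM5B went from rank 39 to rank 26. Across the 4 groups of the first study a member's highest group mean was between 1.04 and 2.21 times its lowest, with a median of 1.24, PIAS1 having the widest ratio. In the second study the ratio ran between 1.05 and 4.1, with a median of 1.27, and NCOA7 was widest.

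Overlapping annotation touches many of these counts. Of the 44 members, 38 overlap another annotated gene, 35 of them with a gene on the opposite strand and 22 with a gene on the same strand. Whether the counting used strand was not stated, so reads of a member and of an antisense neighbour cannot be told apart. More than 20% of exon bases lie in other genes' exons for KDM4A, KAT5 and PIAS1, and SMARCE1 (19.8%) and KMT2A (18.9%) come next.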

How the data were processed

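The deposited table held raw read counts per gene for 24 libraries of LNCaP cells, in 2 studies of 12. The submitters' processing notes name bcl2fastq 2.20, STAR 2.7.9a, featureCounts of Subread 1.6.4 and the build GRCh38.p7, with no parameters, so the authors' counts were used as deposited, and strand and multi-overlap settings are not known. Library totals were 16665915 to 24260446. Columns were matched to samples by their names, and the R1881 libraries of P3 by their sample numbers.

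Counts were analysed with edgeR 4.0.16 (R 4.3.3): filterByExpr by group, TMM factors and the robust quasi-likelihood F test on the 12 libraries of each study, with Benjamini-Hochberg adjustment over all tested genes, for 10 comparisons. A gene was called at an adjusted p under 0.05, and SEs come from the F statistic. The members and companion lists were chosen with earlier results of these data known. Levels per library are given for, in each comparison, the 6 called members with the largest absolute change and for the 4 with the largest called difference in R1881 response, and companion lists by counts, medians and the 2 genes with the smallest adjusted p in each control arm. The model was tested on simulated data. Replicates are stated to be biological triplicates, and no pair agreed within sampling noise (lowest chi-square per degree of freedom 2.48). Gene positions and lengths came from GENCODE 29 and promoters from RefSeq (GRCh38.p14). Alternatives were RLE factors, library totals, no filter, DESeq2 1.42.0, fits of 6 or 24 libraries, a block by run of the sample numbers and each library left out.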

Additional observations from a re-analysis of the deposited data

Results flagged for a closer look

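The R1881 response of 12 members differed between P3 and EV cells in edgeR's interaction test, where 22.6% of all genes differed. Each of the 12 had the smaller absolute response in P3 cells. Over all genes called in siCtrl cells, 87.6% also had the smaller absolute response in P3 cells. Of the 12 calls, 8 held under every alternative tried, and those of SMARCE1, KAT2B, TRIM28 and MED12 did not. The 4 largest differences, P3 minus EV, were 0.71 for EZH2, the Polycomb methyltransferase, -0.688 for PIAS1, a SUMO ligase, 0.617 for the coactivator NCOA7 and -0.424 for the corepressor subunit TBL1X. All 4 were called under every alternative tried.

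The control arms of the 2 studies also differed from each other. In a fit of all 24 libraries, chosen after the data were seen, 12 members had a different R1881 response in EV and siCtrl cells, 5 more positive and 7 more negative in EV cells, where 16.8% of all genes differed. NCOA7 differed by 0.792 and NCOA3 by 0.517, EV minus siCtrl, and both had the larger fall in siCtrl cells. TRIM24 differed by -0.355 and KDM4B by -0.348, having risen by more in siCtrl cells. KDM5B differed by 0.319, though its rise in EV cells was 0.000805 (adjusted p = 0.992) with library totals. There were 2 further fits chosen after the data were seen. Without siCtrl vehicle library 35, 9 members differed, 7 more positive and 2 more negative in EV cells, where 12.7% of all genes differed. With library totals 10 members differed, 9 and 1, where 15.6% of all genes differed and their median difference was 0.0867. NCOA7, NCOA3, TRIM24 and KDM5B were called in both of these fits, and KDM4B was not called with library totals (-0.237, adjusted p = 0.0688). Study and transfection cannot be told apart in this comparison.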

How the results depend on the processing

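Counts of called members stayed within 1.5 times those reported under RLE factors, no filter, DESeq2 and fits of 6 or 24 libraries. With library totals, 21 members were called in P3 cells (3 higher, 18 lower), where 25.5% of all genes were called. Leaving out 1 library gave 9 to 13 members for R1881 in P3 cells, 29 to 31 in EV, 24 to 28 in siWDR77 and 23 to 25 in siCtrl cells, 6 to 11 between P3 and EV cells with vehicle, 18 to 20 with R1881 and 8 to 15 for the difference in response. Between siWDR77 and siCtrl cells it gave 2 to 3 with vehicle, 2 to 9 with R1881 and 0 to 0 for the difference. For R1881 these fits called 16.2% to 18.2% of all genes in P3 and 45.4% to 47.6% in EV cells. In siWDR77 cells they called 47% to 49.2%, and in siCtrl cells 43.8% to 48%. Between P3 and EV cells they called 7.44% to 17% with vehicle, 29.9% to 34.5% with R1881 and 19.1% to 21.9% for the difference. Between siWDR77 and siCtrl cells the shares were 0.494% to 2.59%, 3.17% to 5.93% and 0% to 0.233%. All reversals came with library totals, which shift the median of all genes. In EV cells NRIP1 became -0.155 and CTNNB1 -0.030. Between P3 and EV cells with R1881, EP300 became 0.022, ARID1A 0.149, HDAC1 0.133, DDX5 0.155 and DDX17 0.144. In siCtrl cells EP300 became -0.039, KMT2D -0.0625, ARID1A -0.191, TBL1XR1 -0.238, HDAC2 -0.23, HDAC3 -0.174 and CTNNB1 -0.178. In siWDR77 cells NCOA6 became -0.188, MED1 -0.273, MED14 -0.252, KDM4C -0.043, KDM5B -0.237, ARID1A -0.090, NCOR1 -0.099, TBL1XR1 -0.061, HDAC3 -0.196, DDX17 -0.151 and CTNNB1 -0.22. Some rises under R1881 kept their sign but lost their call with library totals. These were NCOR1, TBL1X and TRIM24 in P3 cells and KDM5B, KMT2D, SIRT1 and PIAS3 in EV cells. In siWDR77 cells they were EP300, KDM3A, KMT2D and PIAS3, and in siCtrl cells KAT2B, KDM3A, NCOR1 and PIAS3. Calls that held under every alternative tried were 6 of 13 in P3, 23 of 31 in EV, 17 of 30 in siWDR77 and 18 of 26 in siCtrl cells. Sample numbers fall into 3 runs. In the first study the correlation of deviations was over 0.1 for 9 of 18 pairs of a shared run (-0.032 to 0.291) and for 0 of 36 other pairs, and in the second for 10 of 18 (-0.17 to 0.218) and 7 of 36. In the first study the median was 0.0934 for pairs of a shared run, against -0.0486 for other pairs, so the runs may pair the samples. The labels do not say what a run is, and the main fits did not use it. A replicate block by run lost no call and gave 18 members in P3, 31 in EV, 30 in siWDR77 and 27 in siCtrl cells. Of all genes, 24.1%, 53.6%, 53.4% and 51.2% were called in these arms with the block. Between P3 and EV cells the block gave 13 members with vehicle, 23 with R1881 and 18 for the difference in response. The shares of all genes there were 20.9%, 40.1% and 26.1%.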
